A study of Mus musculus with 5 samples.

Results

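WNT ligands and the proteins that release them were examined as 10 of the 49671 genes in the count table. The 8 ligand genes were Wnt3, Wnt3a, Wnt8a, Wnt2b, Wnt5a, Wnt5b, Wnt6 and Wnt11, and the 2 secretion genes were Wls and Porcn. Members were defined by gene name, and all 10 were found in the table. Expression was compared between 2 SO+ and 3 SO− mouse embryos of mixed strain background around the onset of gastrulation. SO+ embryos, which the labels call WT, were Sox2Cre-/- with a floxed and an intact Oct4 allele (Oct4 fl/+). SO− embryos were Sox2Cre+/- with a floxed and a null allele (Oct4 fl/-), so that every embryo carried a floxed allele and only SO− embryos carried Cre. The effect of Cre itself therefore cannot be told apart from that of Oct4 loss. The Sox2 promoter drives Cre in the epiblast soon after implantation, and the visceral endoderm (VE) is not its main target. Each sample was the dissected epiblast and VE of 1 embryo, with the extraembryonic ectoderm (ExE) removed. In such bulk samples, fewer cells of a type and less RNA per cell cannot be told apart.

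WNT proteins are secreted glycoproteins that act over short distances. Porcn, an acyltransferase of the endoplasmic reticulum, attaches a lipid to each ligand, and Wls, a membrane-spanning carrier, binds the lipidated protein and takes it to the cell surface. At the cell surface, ligands bind Frizzled receptors and their co-receptors, which in the canonical branch stabilises β-catenin. In the mouse embryo, Wnt3 from the VE and epiblast is required for the primitive streak, and embryos without Wls fail to form an anterior-posterior axis. Wnt8a and Wnt3a are expressed in and near the streak, while Wnt5a, Wnt5b and Wnt11 are best known for β-catenin-independent signalling in cell movement.

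Promoter sequences of Wls, the secretion gene that was higher in SO− embryos, and of Wnt3, the ligand with the highest per-length level, are shown for comparison of their CpG content. They were taken from RefSeq (GRCm38.p6), whose promoter table matched 7 of the 10 members. Wnt8a, Wnt5a and Porcn had no entry. Each run covers the 200 bases from 250 to 51 bases before the transcription start, 5′ to 3′ on the plus strand, with CpG dinucleotides in capitals. The Wls window lies at chr3:159839400-159839599 and the Wnt3 window at chr11:103773925-103774124.
Wls: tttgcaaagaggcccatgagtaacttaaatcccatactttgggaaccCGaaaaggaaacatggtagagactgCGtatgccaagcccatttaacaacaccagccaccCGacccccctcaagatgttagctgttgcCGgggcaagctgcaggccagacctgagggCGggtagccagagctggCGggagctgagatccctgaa
Wnt3: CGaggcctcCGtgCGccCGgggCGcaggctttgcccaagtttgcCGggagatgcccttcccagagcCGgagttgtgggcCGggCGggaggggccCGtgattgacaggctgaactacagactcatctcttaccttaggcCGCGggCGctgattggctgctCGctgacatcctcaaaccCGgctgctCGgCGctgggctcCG

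The Wls window held 6 CpG dinucleotides and the Wnt3 window held 18, against a median of 4 over 32851 RefSeq promoters. Of all promoters, 61.7% had as few as Wls or fewer, and 12.4% had as many as Wnt3 or more. Some members have several starts, and the 7 matched genes have 10 windows. Those of the other matched members ranged from 4 CpG, at one of the starts of Wnt5b, to 35 at Wnt3a. The octamer ATGCAAAT, the motif bound by Oct4 and other POU factors, was sought on both strands in the bases from 250 before to 50 after each start. It was in 0 of the 10 member windows and in 1.74% of all promoters. The TCF/LEF core CTTTGAT, sought in the same way, was in 2 of the 10 windows, at one start each of Wnt11 and Wnt5b, and in 3.73% of all promoters. These matches describe letters in short windows only.

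The libraries differed in depth. SO+ libraries held 27538119 and 27047148 counts, and SO− embryos 1, 2 and 3 held 4134617, 1117566 and 4191498. All libraries of 1 genotype shared a second sequencing index that differed from that of the other genotype, so index and depth cannot be told apart from genotype. Expression is given as CPM, the count scaled to library size by the TMM method, and 3 counts corresponded to 0.109 and 0.111 CPM in SO+ embryos 1 and 2 and to 0.731, 2.68 and 0.723 CPM in SO− embryos 1, 2 and 3. Such floors cover counting error only, since SmartSeq2 libraries carry no molecular identifiers. The targeted gene, Pou5f1, had 919.5 and 437.0 CPM in SO+ against 28.0, 12.5 and 44.1 CPM in the SO− embryos (log2 fold change −4.43 with a standard error, SE, of 0.33, edgeR adjusted p = 3.94e-05). Counts of Pou5f1 were thus low but present in every SO− embryo. Counts per gene do not tell intact Oct4 RNA from RNA of the deleted or null allele. Summed CPM of 6 epiblast markers was 5061 and 4354 in SO+ against 2442, 2115 and 3191 in SO− embryos, without overlap. The sum is mostly Dnmt3b, a DNA methyltransferase of the early epiblast, with a mean of 3628 CPM in SO+ and 1825 CPM in SO− embryos. The 6 markers did not move together. Dnmt3b and Utf1 fell past the edgeR threshold, or 2 of 6 against 2.35% of all tested genes. Pou3f1 (log2 fold change −0.84) and Otx2 (−0.23) did not pass, and Fgf5 (0.38) and Sox2 (0.56) were above 0 without passing. An unadjusted edgeR p under 0.05 was found for 4 of 6, against 13.7% of all tested genes. Every SO− embryo was below both SO+ embryos for 3 markers and above both for 1, against 15.1% lower and 14.2% higher over all tested genes. Summed CPM of 10 VE markers was 2615 and 2844 in SO+ against 3928, 3874 and 2452 in SO− embryos, an overlapping range. No VE marker passed the test of edgeR or DESeq2. At an unadjusted edgeR p under 0.05 there were 4 of 10, against 13.7% of all tested genes. The log2 fold change was above 0 for 8 of the 10, against 49.7% of all tested genes. Summed CPM was between 13.3 and 25.9 for 7 ExE markers and between 3.81 and 7.80 for 6 markers of the decidua, whose defining gene Prl8a2 had no counts in any embryo.

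Of the members tested, only Wnt8a and Wls changed between genotypes in edgeR's quasi-likelihood test with Benjamini-Hochberg adjustment over all genes. Wnt8a was lower and Wls higher in SO− embryos. These were 2 of the 8 members with enough counts to test, against 2.35% of the 12067 genes tested (1.42% higher and 0.928% lower). Members were chosen with earlier results of these data known, so their share is not an independent comparison with that of all genes. DESeq2 called the same 2 members and 2.54% of the 15021 genes for which it gave an adjusted p. At an unadjusted p under 0.05, 3 members passed, against 13.7% of all genes. The log2 fold changes of the 8 members, as SO− over SO+, were above 0 for 4 and below 0 for 4, with a median of 0.07, and 49.7% of all tested genes were above 0. The values of every SO− embryo lay below those of both SO+ embryos for 3 tested members (Wnt8a, Wnt5b and Wnt11) and above them for 1 (Wls). Over all tested genes, this absence of overlap was found for 29.3%, with 15.1% lower and 14.2% higher. The test required 2.39 CPM in at least 2 embryos. Wnt8a and Wnt11 reached it in both SO+ embryos and in 1 SO− embryo, so that both passed mainly through the genotype in which they were higher, and Wnt2b reached it in 1 SO+ and 3 SO− embryos. Wnt3a and Wnt6 reached it in 0 embryos and were not tested.

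**Figure D1:**
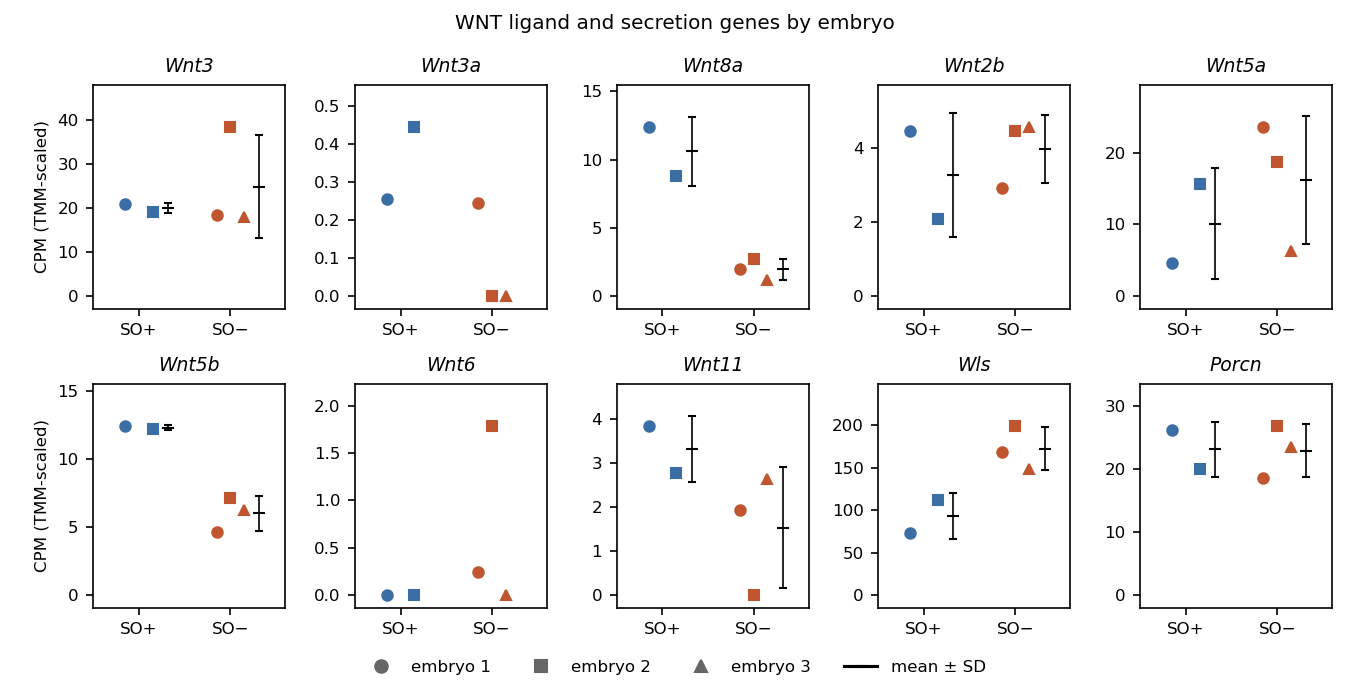
Expression of the 10 genes in each embryo, in CPM on linear axes that differ between panels, with SO+ embryos in blue, SO− embryos in orange and 1 symbol per embryo number. Bars show mean ± SD for the 8 tested genes. Of these, Wnt8a, Wnt5b, Wnt11 and Wls do not overlap between genotypes, as for 29.3% of all tested genes. Only Wnt8a and Wls passed the edgeR threshold. Wnt8a is at 8.83 CPM or more in SO+ embryos and at 2.68 CPM or less in SO− embryos.

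Wnt8a, a canonical ligand of the posterior epiblast and early streak, had 342 counts (12.4 CPM) in SO+ embryo 1 and 238 counts (8.83 CPM) in SO+ embryo 2. In SO− embryos 1, 2 and 3 it had 8, 3 and 5 counts, or 1.95, 2.68 and 1.21 CPM. Each SO− embryo was thus well below both SO+ embryos, and the value of SO− embryo 2 was no higher than the 3-count floor of that library. The mean was 10.6 ± 2.53 CPM (SD, n = 2) in SO+ and 1.94 ± 0.736 CPM (SD, n = 3) in SO− embryos, a ratio of 0.183. The fitted log2 fold change was −2.59 (SE 0.48, 95% confidence interval −3.62 to −1.56, edgeR adjusted p = 0.0118). Wnt8a (ENSMUSG00000012282) lies on the plus strand of chromosome 18 of GRCm38, from 34542313 to 34548273. The direction was the same in the 13 alternatives that could be fitted, but the call was lost with limma-voom (adjusted p = 0.181), without SO+ embryo 1 (0.0611) and without SO− embryo 1, 2 or 3 (adjusted p from edgeR of 0.117, 0.0955 and 0.0517). Of the 6 epiblast markers, 4 had a log2 fold change below 0 and 2 above 0, with a median of −0.53, and their part in the Wnt8a result was not tested.

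Wnt5b, a ligand of the β-catenin-independent group, had nearly equal expression in the SO+ embryos, with 12.4 and 12.2 CPM (343 and 329 counts). It had 4.63, 7.14 and 6.27 CPM in SO− embryos 1, 2 and 3, from 19, 8 and 26 counts. All 3 SO− embryos were below both SO+ embryos. The mean was 12.3 ± 0.166 CPM (SD, n = 2) against 6.01 ± 1.28 CPM (SD, n = 3), a ratio of 0.488. The log2 fold change of −1.09 (SE 0.35, interval −1.85 to −0.32) had an unadjusted p of 0.00899 from edgeR and did not pass after adjustment (adjusted p = 0.162). Its adjusted p ranged from 0.108 to 0.496 over the alternatives. Wnt5b (chromosome 6, minus strand, 119432531 to 119544347) spans Fbxl14 on the opposite strand, with which it shares 0 exonic bases.

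Wnt3, the ligand that initiates streak formation, had 20.8 and 19.1 CPM in SO+ embryos (574 and 515 counts). In SO− embryos 1, 2 and 3 it had 18.3, 38.4 and 17.8 CPM, from 75, 43 and 74 counts. SO− embryos 1 and 3 were slightly below both SO+ embryos, and SO− embryo 2, the smallest library, was above them. The mean was 20.0 ± 1.21 CPM (SD, n = 2) and 24.8 ± 11.7 CPM (SD, n = 3), and the log2 fold change of 0.20 (SE 0.30, interval −0.45 to 0.85, edgeR adjusted p = 0.866) turned to −0.15 without SO− embryo 2. Wnt3 lies on the plus strand of chromosome 11, from 103774150 to 103817957. No difference in Wnt3 was detectable, and the interval leaves room for a change of either sign.

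Wnt5a, a ligand that signals largely through Ror receptors, differed more between the SO+ embryos, as a fold, than any other tested member. It had 4.65 and 15.6 CPM in SO+ embryos 1 and 2 (128 and 420 counts) against 23.6, 18.7 and 6.27 CPM in SO− embryos 1, 2 and 3 (97, 21 and 26 counts). The SO+ embryos were 3.36-fold apart, and the SO− embryos were up to 3.77-fold apart. Over all tested genes, the SO+ embryos were more than 3-fold apart for 2.32% and more than 2-fold apart for 6.36%. SO− embryo 3 lay between the SO+ embryos. The mean was 10.1 ± 7.74 CPM (SD, n = 2) and 16.2 ± 8.95 CPM (SD, n = 3), with a log2 fold change of 0.65 (SE 0.54, interval −0.53 to 1.83, edgeR adjusted p = 0.684). This estimate depended on single embryos, and was 0.02 without SO+ embryo 1, 1.77 without SO+ embryo 2 (edgeR adjusted p = 0.0564) and 0.11 without SO− embryo 1. Wnt5a (chromosome 14, plus strand, 28504750 to 28527448) shares 358 exonic bases with an antisense gene, Gm2670, that had 0 counts in every embryo.

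Wnt2b, a canonical ligand, was low and overlapped between genotypes, with 4.46 and 2.08 CPM in SO+ (123 and 56 counts) against 2.92, 4.46 and 4.58 CPM in SO− embryos (12, 5 and 19 counts). Its means were 3.27 ± 1.69 CPM (SD, n = 2) and 3.99 ± 0.925 CPM (SD, n = 3). Its log2 fold change was 0.26 (SE 0.57, interval −0.97 to 1.48, edgeR adjusted p = 0.920), and it was −0.20 without SO+ embryo 2. Wnt2b lies on the minus strand of chromosome 3, from 104945272 to 104961921.

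Wnt11, a ligand linked to cell movement in gastrulation, had 3.85 and 2.78 CPM in SO+ embryos (106 and 75 counts). In SO− embryos 1 and 3 it had 1.95 and 2.65 CPM (8 and 11 counts), and in SO− embryo 2 it had 0 counts, which allows up to 2.68 CPM. SO− embryo 3 was close to SO+ embryo 2, although the genotypes did not overlap. The mean was 3.31 ± 0.751 CPM (SD, n = 2) against 1.53 ± 1.37 CPM (SD, n = 3), and the log2 fold change of −0.82 (SE 0.67, interval −2.27 to 0.64, edgeR adjusted p = 0.678) did not pass. Wnt11 (chromosome 7, plus strand, 98835112 to 98855195) shares 364 exonic bases with Gm8398, a processed pseudogene on the opposite strand with 0 counts.

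Wnt3a and Wnt6 were near the limit of detection. Wnt3a, a canonical ligand that is required for the later streak and the tail, had 7 and 12 counts in SO+ (0.254 and 0.445 CPM) against 1, 0 and 0 counts in SO− embryos 1, 2 and 3. Pooled over embryos, this was 0.349 CPM in SO+ (exact 95% Poisson interval 0.210 to 0.544, counting error only) and 0.107 CPM in SO− (0.0027 to 0.594). The intervals overlapped, and the SO+ rate would give 3.27 counts at the summed SO− depth, so that a fall in Wnt3a was not detectable at this depth. Wnt6 had 0 counts in both SO+ embryos (exact 95% Poisson interval 0 to 0.0677 CPM over the group). It had 1, 2 and 0 counts in SO− embryos 1, 2 and 3. The 3 pooled SO− counts equal the floor, 0.320 CPM (interval 0.0660 to 0.935), and no fold change is given. The Wnt6 intervals overlapped only slightly, but they cover counting error only. Wnt3a lies on chromosome 11 (minus strand, 59248033 to 59290752) and Wnt6 on chromosome 1 (plus strand, 74771892 to 74785322).

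Wls, the carrier of WNT proteins to the cell surface, was the most highly expressed member and rose in SO− embryos. It had 2033 counts (73.8 CPM) in SO+ embryo 1 and 3015 counts (112 CPM) in SO+ embryo 2, and 691, 223 and 618 counts in SO− embryos 1, 2 and 3, or 168, 199 and 149 CPM. Every SO− embryo was above both SO+ embryos, which were themselves clearly apart. Mean expression was 172 ± 25.2 CPM (SD, n = 3) in SO− and 92.8 ± 27.0 CPM (SD, n = 2) in SO+ embryos, a ratio of 1.85. The log2 fold change was 0.87 (SE 0.18, 95% confidence interval 0.49 to 1.26, edgeR adjusted p = 0.0213). Wls (ENSMUSG00000028173) lies on the plus strand of chromosome 3, from 159839672 to 159938664, and its promoter is the CpG-poorer sequence of the pair printed above. The rise kept its direction in all 14 alternatives but lost its call with limma-voom (adjusted p = 0.142), without SO+ embryo 1 (log2 fold change 0.60, adjusted p = 0.0766), and without SO− embryo 1 or 2 (adjusted p from edgeR of 0.203 and 0.259). Of the 10 VE markers, 8 had a log2 fold change above 0, with a median of 0.38, and their part in the Wls result was not tested.

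Porcn, the acyltransferase that lipidates WNT proteins, had 26.2 and 20.0 CPM in SO+ (722 and 539 counts) against 18.5, 26.8 and 23.4 CPM in SO− embryos (76, 30 and 97 counts). The ranges overlapped almost fully, with means of 23.1 ± 4.38 CPM (SD, n = 2) and 22.9 ± 4.15 CPM (SD, n = 3). The fitted log2 fold change was −0.05 (SE 0.24, interval −0.57 to 0.47, edgeR adjusted p = 0.966), and it changed sign without SO+ embryo 1 (0.15) or SO− embryo 1 (0.09). Porcn is on the minus strand of chromosome X, from 8193848 to 8206525. Counts of 4 Y-linked genes summed to between 122 and 172 CPM in all 5 embryos, and the 455 tested X-linked genes had a median log2 fold change of 0.06.

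**Figure D2:**
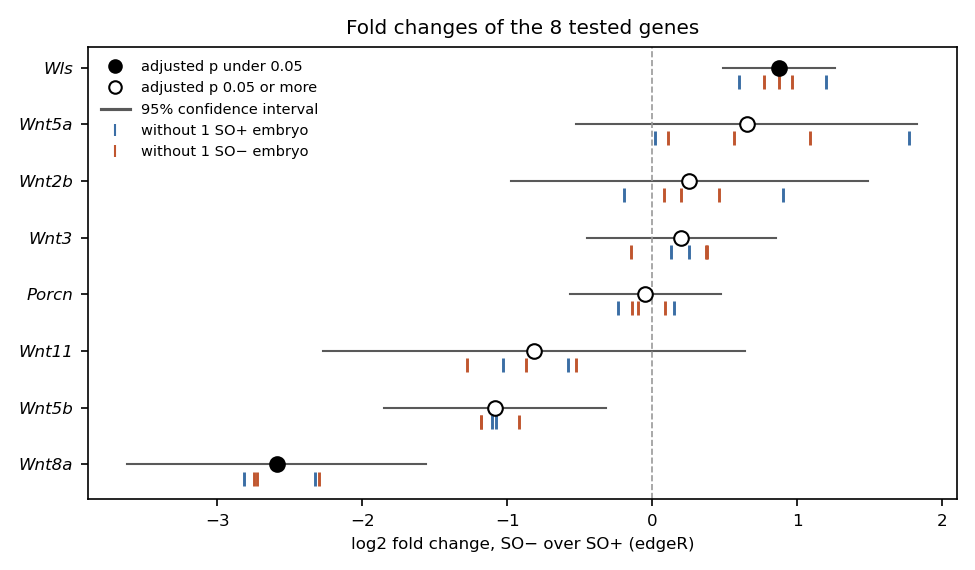
Log2 fold changes of the 8 tested genes, SO− over SO+, with points for the estimate from edgeR (filled where the adjusted p was under 0.05), lines for the 95% confidence interval and ticks for the estimate with each embryo left out. Wls at 0.87 and Wnt8a at −2.59 are the filled points, and ticks fall on both sides of 0 for Wnt2b, Wnt3 and Porcn.

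Levels can be compared between genes only per length, so CPM was divided by the summed exon length in kilobases (RPKM). In SO+ embryos, Wls had the highest mean level, 10.6 RPKM, followed by Porcn (7.70), Wnt3 (6.49), Wnt8a (6.08), Wnt5b (4.65), Wnt5a (1.29), Wnt11 (0.801), Wnt2b (0.779), Wnt3a (0.127) and Wnt6 (0). Neighbours in this order overlapped between embryos from Wls to Wnt8a and from Wnt5a to Wnt2b. The lower embryo of the upper gene was above the higher embryo of the next gene for Wnt8a over Wnt5b, Wnt5b over Wnt5a, Wnt2b over Wnt3a and Wnt3a over Wnt6. In SO− embryos the order of mean RPKM was Wls (19.6), Wnt3 (8.07), Porcn (7.63), Wnt5b (2.27), Wnt5a (2.07), Wnt8a (1.11), Wnt2b (0.950), Wnt11 (0.371), Wnt6 (0.308) and Wnt3a (0.0294). Here only Wls over Wnt3, Porcn over Wnt5b and Wnt2b over Wnt11 were separated in every embryo. Wnt8a came directly after Wnt3 in SO+ embryos and after both Wnt5 genes in SO− embryos, and Wls led in both.

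The make-up of the ligand pool was described by summing RPKM over the 8 ligands. The sum was 21.2 and 19.2 in SO+ against 13.2, 21.0 and 11.4 in SO− embryos 1, 2 and 3, an overlapping range with means of 20.2 ± 1.45 (SD, n = 2) and 15.2 ± 5.09 (SD, n = 3). Without Wnt8a, the sum was 14.1 in each SO+ embryo and 12.1, 19.4 and 10.7 in SO− embryos 1, 2 and 3, so that 2 SO− embryos were below both SO+ embryos and the smallest library was above them. Wnt8a made up 33.5% and 26.4% of the sum in SO+ against 8.46%, 7.31% and 6.06% in SO− embryos. Wnt3 made up 31.9% and 32.4% in SO+ against 45.0%, 59.5% and 50.9% in SO− embryos. Wnt5b made up 22.1% and 24.0% in SO+ against 13.2%, 12.8% and 20.7% in SO− embryos. Wnt5a made up 2.79% and 10.4% in SO+ against 22.9%, 11.4% and 7.04% in SO− embryos, an overlapping range. The shares of Wnt8a, Wnt5b and Wnt3 were thus separated between genotypes, with Wnt8a and Wnt5b lower and Wnt3 higher in SO− embryos. The level of Wnt3 itself overlapped, and levels were without overlap for 29.3% of all tested genes. Shares are not independent of each other, since they add up to the whole. The ratio of Wnt3 to Wnt8a in RPKM was 0.953 and 1.23 in SO+ against 5.32, 8.14 and 8.40 in SO− embryos. The ratio of Wls to the summed ligands was 0.395 and 0.663 in SO+ against 1.45, 1.08 and 1.49 in SO− embryos. No test was run on these sums and ratios, for which 2 embryos against 3 allow no exact permutation p below 0.1.

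**Figure D3:**
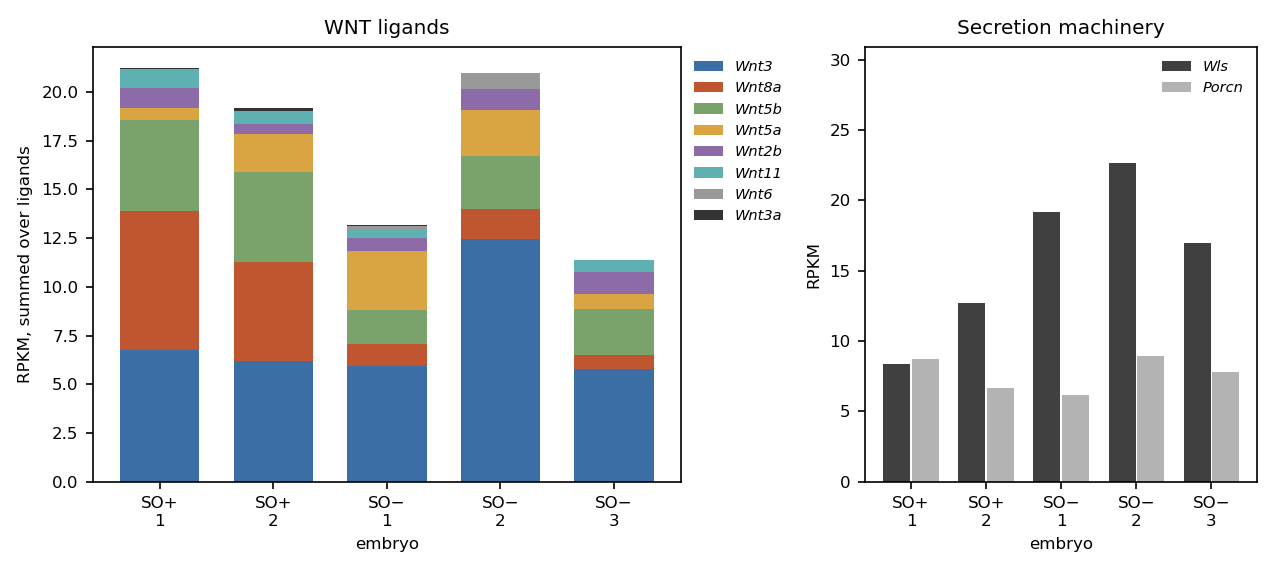
Left, RPKM of the 8 ligands stacked for each embryo. Right, RPKM of Wls and Porcn in the same embryos. The Wnt8a segment is between 5.06 and 7.11 RPKM in SO+ embryos and at most 1.53 RPKM in SO− embryos, and the Wls bars range from 16.95 to 22.6 RPKM in SO− embryos against 8.39 and 12.7 RPKM in SO+ embryos.

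The genes most like the called members were found as those with the smallest root mean square difference of centred log2(CPM + 1) values over the 5 embryos, among the 9305 genes that had a log2 CPM of 3 or more on average. For Wnt8a these included Elavl3, an RNA-binding protein of neurons (difference 0.285), and Mal2, a membrane protein of apical transport (0.331). Elavl3 had 16.3 and 9.95 CPM in SO+ against 1.46, 1.78 and 1.45 CPM in SO− embryos. For Wls these were Zfp36l1, an RNA-binding protein that promotes mRNA decay (0.0222), Amot, a scaffold protein of the Hippo pathway (0.0643), and S100a10, a partner of annexin A2 (0.0709). Zfp36l1 had 44.1 and 67.1 CPM in SO+ against 104, 123 and 92.8 CPM in SO− embryos. These genes were selected for their likeness over the same embryos, which is therefore a description.

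Other genes of the WNT pathway were grouped into lists by role. Of their 94 genes, 69 had enough counts to test, and edgeR called 2 of these (2.90%, against 2.35% of all tested genes), Cer1 higher and Ccnd1 lower. Log2 fold changes were above 0 for 41 and below 0 for 28, with a median of 0.12, and 13 of the 69 had an unadjusted p under 0.05, against 13.7% of all genes. DESeq2 called 3, the same 2 and Dkk1. The share of pathway genes called was close to that of all genes.

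Of the 11 WNT ligands that are not members, 2 were tested and edgeR called 0 (0 at an unadjusted p under 0.05, 0 by DESeq2). Wnt9b had 28 and 4 counts in SO+ against 15, 0 and 10 in SO− embryos, with a log2 fold change of 2.03 (SE 0.99, edgeR adjusted p = 0.398). Wnt2 had 7 and 40 counts in SO+ against 17, 3 and 2 in SO− embryos (log2 fold change 1.45, edgeR adjusted p = 0.587). Wnt7b had 0 and 20 counts in SO+ against 0, 0 and 6 in SO− embryos, and was not tested. Wnt9b and Wnt2 reached the 2.39 CPM needed for the test only in SO− embryos, 2 for each gene, so that both passed the filter through the genotype in which they were higher. Each of the 3 genes had overlapping genotypes and embryos of 1 genotype that differed widely. All 11 genes for cargo transport and the acyl donor were tested. They cover the retromer, which returns Wls from endosomes, p24 proteins and the Scd enzymes that make the lipid, and edgeR called 0 (0 at an unadjusted p under 0.05, 0 by DESeq2), with a median log2 fold change of 0.02. Scd1 had the smallest p, with 56.4 and 63.8 CPM in SO+ against 56.5, 41.9 and 24.4 CPM in SO− embryos (log2 fold change −0.56, edgeR adjusted p = 0.371).

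All 16 receptor genes were tested, and edgeR called 0 (0 by DESeq2), with 12 above 0 and a median log2 fold change of 0.26. At an unadjusted edgeR p under 0.05 there were 4, against 13.7% of all tested genes. Fzd6, a Frizzled receptor of planar cell polarity, had the smallest p, with 5.15 and 2.78 CPM in SO+ against 9.74, 12.5 and 9.16 CPM in SO− embryos (log2 fold change 1.36, SE 0.44, edgeR adjusted p = 0.158). Every SO− embryo was above both SO+ embryos for Fzd6, yet the difference did not pass. Of the 9 genes of the R-spondin axis, which adjusts receptor turnover, 5 were tested and edgeR called 0 (0 by DESeq2). Of these 5, 2 had an unadjusted edgeR p under 0.05, against 13.7% of all tested genes. Rspo1, a secreted amplifier of WNT signalling, had 12.2 and 13.6 CPM in SO+ against 4.63, 5.35 and 7.72 CPM in SO− embryos (log2 fold change −1.10, SE 0.36, edgeR adjusted p = 0.161).

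Of the 18 antagonists, 9 were tested and edgeR called 1 (2 by DESeq2). An unadjusted edgeR p under 0.05 was found for 4 of the 9, against 13.7% of all tested genes. Cer1, a secreted inhibitor of WNT, NODAL and BMP ligands made by the anterior VE and later by the definitive endoderm, had 78.3 and 82.8 CPM in SO+ against 139.8 (embryo 1), 129 (embryo 2) and 119.9 (embryo 3) CPM in SO− embryos. Its log2 fold change was 0.69 (SE 0.13, edgeR adjusted p = 0.0126), and the call was lost without SO+ embryo 1 (adjusted p = 0.0554) and without SO− embryo 1 or 2 (0.174 and 0.137). Dkk1, an inhibitor of the Lrp co-receptors, had 43.2 and 60.4 CPM in SO+ against 85.5, 83.9 and 81.0 CPM in SO− embryos. Its log2 fold change was 0.69 (SE 0.17, edgeR adjusted p = 0.0523, DESeq2 adjusted p = 0.0262). In edgeR it passed with a robust spread (adjusted p = 0.0370), at least 10 counts in every embryo (0.0398) and the replicate block (0.00152). It did not pass with limma-voom (adjusted p = 0.186) or, in edgeR, without SO− embryo 1, 2 or 3 (0.331, 0.276 and 0.115). Nor did it pass in edgeR with RLE scaling (adjusted p = 0.0516), upper quartile scaling (0.0524), no filter on low counts (0.0715) or thinned SO+ counts (0.0579). Without SO+ embryo 1 or 2, its log2 fold change was 0.46 and 0.95. Frzb, a soluble Frizzled-like protein, had 14.9 and 75.0 CPM in SO+ against 152 (embryo 1), 151 (embryo 2) and 113 (embryo 3) CPM in SO− embryos (log2 fold change 1.62, SE 0.46, edgeR adjusted p = 0.0960). The SO+ embryos were 5.04-fold apart for Frzb. Its log2 fold change was 0.87 without SO+ embryo 1 and 3.21 without SO+ embryo 2. Calls from fits with 1 SO+ embryo are not given for Frzb or Dkk1. With SO+ counts thinned to the SO− depth, Frzb passed (1.62, edgeR adjusted p = 0.0480). It also passed with the replicate number as a block (2.22, edgeR adjusted p = 4.45e-16). Its adjusted p was 0.467 by DESeq2, 0.251 with limma-voom and 0.582 from edgeR with a robust spread. Without SO− embryo 1, 2 or 3, the edgeR adjusted p was 0.449, 0.456 and 0.145. Sfrp2, another soluble Frizzled-like protein, had 29.6 and 30.03 CPM in SO+ against 17.3, 4.46 and 22.4 CPM in SO− embryos (log2 fold change −0.86, SE 0.34, edgeR adjusted p = 0.263). Of the 9 tested antagonists, every SO− embryo was above both SO+ embryos for 3 and below both for 1, against 14.2% higher and 15.1% lower over all tested genes.

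Of 19 genes for intracellular transduction, 18 were tested and edgeR called 0 (0 at an unadjusted p under 0.05, 0 by DESeq2), with log2 fold changes between −0.37 and 0.34. Tcf7l1, a TCF factor that mainly represses targets, had the smallest p (log2 fold change −0.27, edgeR adjusted p = 0.465). Of 10 target genes, 8 were tested and edgeR called 1 (1 by DESeq2), against 2.35% of all tested genes in edgeR. At an unadjusted edgeR p under 0.05 there were 3, against 13.7% of all tested genes. Log2 fold changes were above 0 for 5 and below 0 for 3. Myc had 53.6 and 61.7 CPM in SO+ against 69.9, 76.7 and 77.4 CPM in SO− embryos (log2 fold change 0.37, edgeR adjusted p = 0.268). Ccnd1, the G1 cyclin D1, had 168 and 151 CPM in SO+ against 97.2, 99.1 and 99.1 CPM in SO− embryos, which were nearly equal to each other. The log2 fold change was −0.70 (SE 0.12, edgeR adjusted p = 0.00754), and the call was lost without SO− embryo 1 (adjusted p = 0.107) or SO− embryo 2 (0.0997). Axin2, the feedback inhibitor that is the most general WNT target, had 24.7 and 35.7 CPM in SO+ against 30.0, 29.4 and 20.5 CPM in SO− embryos, overlapping ranges (log2 fold change −0.20, SE 0.24, interval −0.73 to 0.32, edgeR adjusted p = 0.805). T (brachyury), a streak gene and WNT target, had 38.6 and 35.6 CPM in SO+ against 83.3, 55.3 and 33.3 CPM in SO− embryos (log2 fold change 0.63, SE 0.28, edgeR adjusted p = 0.344).

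**Figure D4:**
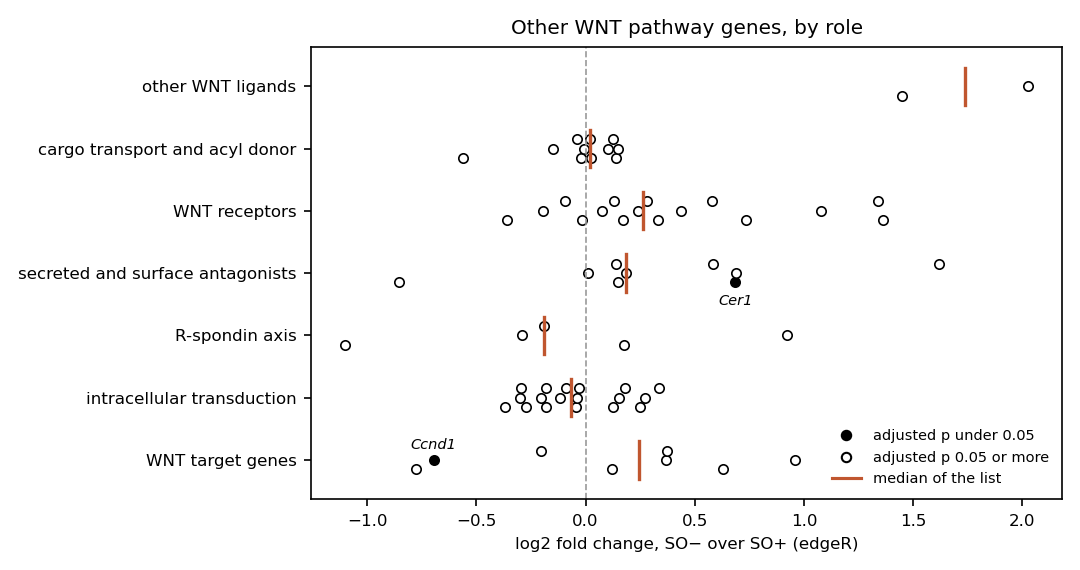
Log2 fold changes, SO− over SO+, of the 69 tested genes of the other WNT pathway lists, 1 point per gene, filled where the adjusted p from edgeR was under 0.05, with the median of each list as a bar. Cer1 at 0.69 and Ccnd1 at −0.70 are the filled points, and the genes for cargo transport and intracellular transduction lie closest to 0.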

How the data were processed

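The 5 embryos were grouped and numbered by their labels. Per the labels and the study's methods, cutadapt trimmed the adapters, STAR aligned to GRCm38/mm10 and HTSeq-count counted on Ensembl 87 genes. The authors deposited these raw counts without normalization. The strand setting of the counting is not given in the sources used here. How reads over exons shared with antisense genes were counted, or whether they were left out, is therefore not known.

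Counts were fitted in R 4.3.3 with edgeR 4.0.16 (TMM, filterByExpr by genotype, quasi-likelihood test, genotype as the only term, Benjamini-Hochberg over all 12067 genes tested, threshold 0.05), after a test on simulated data. Standard errors (SE) were calculated from the log2 fold change and its F statistic. RPKM used exon lengths of GENCODE M21. Alternatives were RLE and upper quartile scaling, DESeq2 1.42.0, limma-voom (limma 3.58.1), other filters, a robust spread, thinned SO+ counts, the replicate number as a block and each embryo left out. Nothing in the labels gives litters or dates.

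Members and lists were chosen with earlier results of these data known. Named genes are all members, other WNT ligands reaching 1 CPM, called pathway genes, the smallest p per list and the 3 nearest profiles per called member, of which 1 is not reported here. Dkk1, Frzb, Sfrp2, Axin2, T, Myc, the epiblast markers and the genes of the closing section were chosen after their values were seen.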

Additional observations from a re-analysis of the deposited data

How the results depend on the processing

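The 14 alternatives, of which 5 left out an embryo each, were run for the counts of calls, Pou5f1 and the tested members, except that Wnt8a, Wnt2b, Wnt5b and Wnt11 had too few counts for the filter of at least 10 counts in every embryo. Of 283 genes called, limma-voom gave 91 and the fits without 1 embryo gave between 35 (without SO− embryo 2) and 573 (without SO+ embryo 2). Without an SO+ embryo, the remaining one is assumed to vary like the SO− embryos. Members called numbered 0 with limma-voom, 1 with at least 10 counts in every embryo, and between 0 and 2 without 1 embryo. Pathway genes called numbered between 0 and 4 without 1 embryo. Fitting the replicate number as a block gave 929 genes, 3 members (Wnt5a added, log2 fold change 1.41, edgeR adjusted p = 0.00768) and 10 pathway genes. Same-numbered embryos are different animals, and the correlations of their deviations were 0.0077 and 0.115 over 2 pairs. With 2 SO+ embryos, the deviations of 1 mirror those of the other, so this check is weak. Whether the numbers mark a shared litter or batch is not known. The log2 fold change of Pou5f1 was −4.35 with limma-voom (adjusted p = 0.0639) and −4.43 with a robust spread (edgeR adjusted p = 0.0988), past the threshold in neither. The sign was reversed for Wnt3 without SO− embryo 2 (−0.15, with a highest value of 0.38 without another embryo), for Wnt2b without SO+ embryo 2 (−0.20, highest 0.90) and for Porcn without SO+ embryo 1 (0.15, lowest −0.24) or SO− embryo 1 (0.09). Wnt8a kept its direction and call in 8 of 13 alternatives and Wls in 10 of 14. Without 1 embryo, the log2 fold change ranged from −2.82 to −2.30 for Wnt8a and from 0.60 to 1.20 for Wls. No scaling changed a call of a member or moved the share of higher calls by more than 10 percentage points. Library totals in place of TMM left the per-length levels within the spread between embryos. Means without 1 embryo lie within that spread by construction, but moved from 1.29 to 0.594 or 1.99 RPKM for Wnt5a in SO+ embryos and, without SO− embryo 2, from 0.308 to 0.0556 RPKM for Wnt6 in SO− embryos. Depth limits the SO− values: in SO− embryo 2, 3 counts stand for 2.68 CPM and lower levels cannot be read, so Wnt8a, Wnt3a, Wnt6 and Wnt11 are uncertain there. Second index and depth follow genotype, and their part was not tested beyond thinning the SO+ counts, after which 276.5 genes (median of 10 draws) and 2 members were called.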

Other observations

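The SO+ embryos, which share a genotype, also differed in several genes of the streak and nascent mesoderm. Summed over 8 markers of these tissues, SO+ embryos 1 and 2 had 494 and 777 CPM and SO− embryos 649, 678 and 538 CPM, with none of the 6 tested markers past the threshold of edgeR (1 at an unadjusted p under 0.05). Mesp1, a factor of nascent mesoderm, had 20.9 CPM in SO+ embryo 1 and 63.5 CPM in SO+ embryo 2, against 28.0, 27.7 and 27.2 CPM in SO− embryos 1, 2 and 3. Lhx1, a factor of the anterior streak and anterior VE, had 41.9 and 115 CPM in SO+ against 105 (embryo 1), 127 (embryo 2) and 96.2 (embryo 3) CPM in the SO− embryos. Tbx6, a factor of paraxial mesoderm, had 0 counts in SO+ embryo 1 and 46 in SO+ embryo 2, and 1, 0 and 0 counts in SO− embryos. Sp5, a WNT target, had 19.4 and 49.4 CPM in SO+ against 44.6, 41.1 and 28.0 CPM in the SO− embryos. Mixl1, a streak factor, had 159 and 282 CPM in SO+ embryos 1 and 2. Other markers of the list differed less or the other way between the SO+ embryos, with 38.6 and 35.6 CPM for T, 24.7 and 25.2 CPM for Snai1, 209 and 253 CPM for Eomes, and 4 and 0 counts for Msgn1. Over all tested genes, 6.36% were more than 2-fold apart between the SO+ embryos.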
